A study of Mus musculus with 10 samples.

Results

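The 10 genes described here encode the channels, pumps and exchanger that move calcium in smooth muscle cells. They are the L-type calcium channel gene *Cacna1c*, the ryanodine receptor genes *Ryr2* and *Ryr3*, the inositol trisphosphate receptor genes *Itpr1* and *Itpr2*, the sarcoplasmic reticulum pump gene *Atp2a2* with its inhibitor *Pln*, the plasma membrane pump genes *Atp2b1* and *Atp2b4*, and the sodium-calcium exchanger gene *Slc8a1*. They were taken by gene symbol from a table of read counts for 55453 genes in mouse aortae, and all 10 were among the 14614 genes that passed the filter on low counts and were tested.

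Smooth muscle cells of the arterial wall contract when cytosolic calcium rises and activates myosin light chain kinase through calmodulin. Calcium enters through voltage-gated channels and is released from the sarcoplasmic reticulum by inositol trisphosphate receptors and ryanodine receptors. It is taken back into the store by the SERCA pump, which phospholamban restrains, and is removed from the cell by plasma membrane pumps and by sodium-calcium exchange.

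RNA-seq was performed on 5 young aortae from male C57BL/6 mice aged 14.5 weeks and on 5 old aortae from male mice of the same strain, aged 92.5 weeks in the sample labels. The sources name no transgene and no drug treatment in either group, and the mice were killed at the same time. Each library came from a whole aorta that had been perfused with saline and cleaned of the surrounding fat, so it holds RNA of smooth muscle together with that of endothelium, adventitia and blood cells. In such RNA, fewer cells of a type and less RNA per cell cannot be told apart.

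Each library held 19640401 to 22886153 counts summed over genes. Counts of libraries from the same age differed 8.61 to 64.8 times more than counting error gives over 20 pairs, so that no library was a copy of another. Levels are given as normalized counts, which are counts divided by the DESeq2 size factor of the library, with mice in the order of their replicate numbers. Differences are log2 fold changes of old over young with their standard error (SE), from edgeR's quasi-likelihood test across all tested genes, and a gene was called when its Benjamini-Hochberg adjusted p was below 0.05.

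Of the 10 calcium handling genes, *Ryr2* rose and *Slc8a1* fell in old aortae, each by a small amount. Among all tested genes 11.5% were called, 6.48% as higher and 4.99% as lower, so that 1 call in each direction among 10 genes lies near this background. *Atp2a2*, the most abundant of the 10, had a similar difference to *Slc8a1* but did not pass the test, and the other 7 genes did not pass either. The differences were negative for 7 genes and positive for 3, with a median log2 fold change of -0.075, against 0.003 over all tested genes. The median size of the difference, without its sign, was 0.192 for the 10 genes, 0.136 for all tested genes and 0.575 for all called genes.

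**Figure D1:**
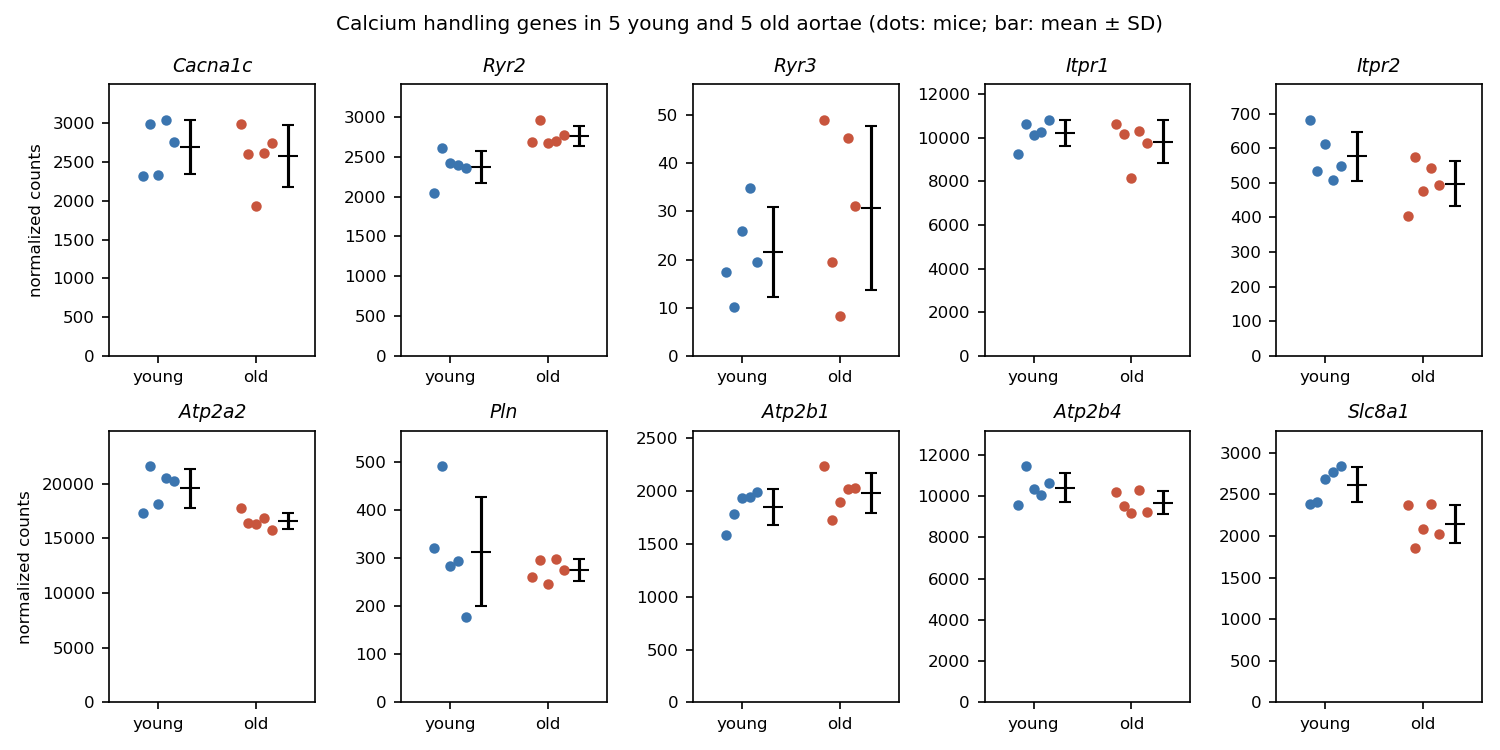
Normalized counts (y axis, from 0) of the 10 calcium handling genes in each of 5 young (blue) and 5 old (red) aortae, with the mean and SD of each group as a bar. The old aortae lie above all young ones for *Ryr2* only, while the groups overlap for the other 9 genes.

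*Cacna1c* (chr6:118587240-119196418, GRCm38, minus strand) encodes the pore of the L-type voltage-gated channel, the main entry route for calcium in arterial smooth muscle. Its normalized counts were 2312, 2987, 2335, 3041 and 2762 in young aortae and 2991, 2601, 1928, 2619 and 2740 in old aortae. The groups covered nearly the same range, with old replicate 3 below every other library. The log2 fold change was -0.05 (SE 0.115, 95% interval -0.302 to 0.196, edgeR adjusted p = 0.816). Its sign depended on the scaling, being 0.028 when libraries were scaled to smooth muscle marker genes and 0.033 without old replicate 3.

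*Ryr2* (chr13:11553102-12106945, minus strand) encodes the ryanodine receptor best known from heart muscle, which in arteries gives local calcium release from the store. The young aortae had 2051, 2610, 2423, 2402 and 2362 normalized counts, and the old ones had 2692, 2964, 2668, 2700 and 2777. Every old aorta was above every young one, with young replicate 1 the lowest library and young replicate 2 the nearest to the old group. *Ryr2* was the only one of the 10 genes whose groups were separate, and among all tested genes 9.92% had separate groups, 5.37% with the old group above and 4.55% with it below. The mean rose from 2369 ± 202 to 2760 ± 121 (SD, n = 5 each), a rise of 17.1% with a log2 fold change of 0.23 (SE 0.065, 95% interval 0.087 to 0.369, edgeR adjusted p = 0.0384).

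The *Ryr2* call depended on the setting. It was lost without the low-count filter (adjusted p = 0.0522) and was called in 3 of the 10 fits that left out 1 library. The edgeR adjusted p was 0.0589, 0.078 and 0.0751 without young replicates 3, 4 and 5, and 0.0543, 0.0753, 0.0602 and 0.0779 without old replicates 1, 2, 4 and 5. Over 20 alternatives its log2 fold change ran from 0.18 to 0.31 and its adjusted p from 0.0131 with DESeq2 to 0.078.

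*Ryr3* (chr2:112631355-113217096, minus strand), the ryanodine receptor gene of the brain type, was barely detected. Its normalized counts were 17.4, 10.1, 25.9, 34.8 and 19.5 in young aortae and 49, 19.6, 8.39, 45.3 and 31.1 in old aortae. The old libraries held both the highest and the lowest value of all 10. Its log2 fold change was 0.51 (SE 0.431, 95% interval -0.421 to 1.446, edgeR adjusted p = 0.494). The coefficient of variation was 43.3% in young and 55.7% in old aortae, and the wide interval leaves both a fall and a rise possible.

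*Itpr1* (chr6:108213096-108551109, plus strand) encodes the inositol trisphosphate receptor that opens after stimulation by vasoconstrictors. Young aortae had 9277, 10629, 10111, 10265 and 10817 normalized counts, and old aortae had 10652, 10178, 8143, 10320 and 9752. Apart from old replicate 3, the lowest library, the old values lay within the young range. The log2 fold change was -0.05 (SE 0.076, 95% interval -0.216 to 0.113, edgeR adjusted p = 0.724), and it turned to 0.028 under scaling to smooth muscle markers and to 0.007 without old replicate 3.

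*Itpr2* (chr6:146108299-146502223, minus strand), the second receptor of this family, had 682, 533, 611, 507 and 550 normalized counts in young aortae. The old aortae had 403, 574, 476, 543 and 495. The lowest and the highest library fell in different groups, but 2 old values lay within the young range. Its log2 fold change was -0.20 (SE 0.104, 95% interval -0.427 to 0.021, edgeR adjusted p = 0.233).

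*Atp2a2* (chr5:122453513-122502225, minus strand) encodes SERCA2, the pump that refills the sarcoplasmic reticulum. Its normalized counts were 17354, 21568, 18126, 20500 and 20255 in young aortae and 17741, 16351, 16316, 16828 and 15770 in old aortae. The groups overlapped only through old replicate 1, which lay above young replicate 1. The means were 19561 ± 1755 and 16601 ± 739 (SD, n = 5 each), with a log2 fold change of -0.23 (SE 0.071, 95% interval -0.381 to -0.076, edgeR adjusted p = 0.0537). *Atp2a2* was called lower by DESeq2 (adjusted p = 0.00814) and by edgeR with DESeq2 size factors (0.0469), with library size alone (0.0477), with a correction for GC content and length (0.0398), without young replicate 1 (0.0162) and without old replicate 1 (0.0482). Its adjusted p was 0.178 with scaling to smooth muscle markers, at a log2 fold change of -0.15.

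*Pln* (chr10:53337667-53345987, plus strand) encodes phospholamban, the small membrane protein that inhibits SERCA2. The young aortae had 322, 491, 283, 295 and 178 normalized counts and the old ones 261, 297, 247, 299 and 275. The young group held both the highest and the lowest library, with a coefficient of variation of 36% against 8.22% in the old group. The log2 fold change of -0.18 (SE 0.206, 95% interval -0.631 to 0.271, edgeR adjusted p = 0.634) became 0.035 without young replicate 2, the highest library. Genes on the opposite strand, *Cep85l* and *Gm47644*, overlap 64.7% of the exonic sequence of *Pln*, and since the strand setting of the counting is not given in the sources used here, reads of *Pln* and of these genes may not be separated. *Cep85l* itself had 427 ± 52.8 and 430 ± 62.7 normalized counts (edgeR adjusted p = 0.95).

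*Atp2b1* (chr10:98914406-99026143, plus strand) encodes the plasma membrane pump PMCA1. Its normalized counts were 1584, 1786, 1931, 1947 and 1994 in young aortae and 2234, 1722, 1896, 2023 and 2026 in old aortae. In this gene 3 old libraries lay above all young ones and 2 within the young range. This gave a log2 fold change of 0.11 (SE 0.079, 95% interval -0.062 to 0.277, edgeR adjusted p = 0.422).

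*Atp2b4* (chr1:133699457-133801041, minus strand) encodes PMCA4, the other plasma membrane pump of this group. The young aortae had 9579, 11436, 10342, 10048 and 10636 normalized counts, and the old ones had 10215, 9517, 9184, 10298 and 9207. In this gene 3 old libraries lay below all young ones and 2 within the young range. Old over young gave a log2 fold change of -0.10 (SE 0.064, 95% interval -0.235 to 0.043, edgeR adjusted p = 0.375).

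*Slc8a1* (chr17:81373105-81738377, minus strand) encodes NCX1, which exchanges sodium for calcium across the plasma membrane. Its normalized counts were 2379, 2410, 2689, 2762 and 2835 in young aortae and 2371, 1857, 2080, 2387 and 2024 in old aortae. The groups overlapped only through old replicate 4, which lay just above young replicate 1, and the other 4 old libraries were below all young ones. The mean fell by 17.5%, from 2615 ± 208 to 2144 ± 230 (SD, n = 5 each), with a log2 fold change of -0.28 (SE 0.079, 95% interval -0.449 to -0.107, edgeR adjusted p = 0.038).

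*Slc8a1* was called in 4 of the 10 fits that left out 1 library. The edgeR adjusted p was 0.0735, 0.0956 and 0.0807 without young replicates 3, 4 and 5, and 0.0658, 0.0688 and 0.0939 without old replicates 2, 3 and 5. With libraries scaled to smooth muscle markers the log2 fold change was -0.21 (adjusted p = 0.0954). Over 20 alternatives it ran from -0.32 to -0.21.

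**Figure D2:**
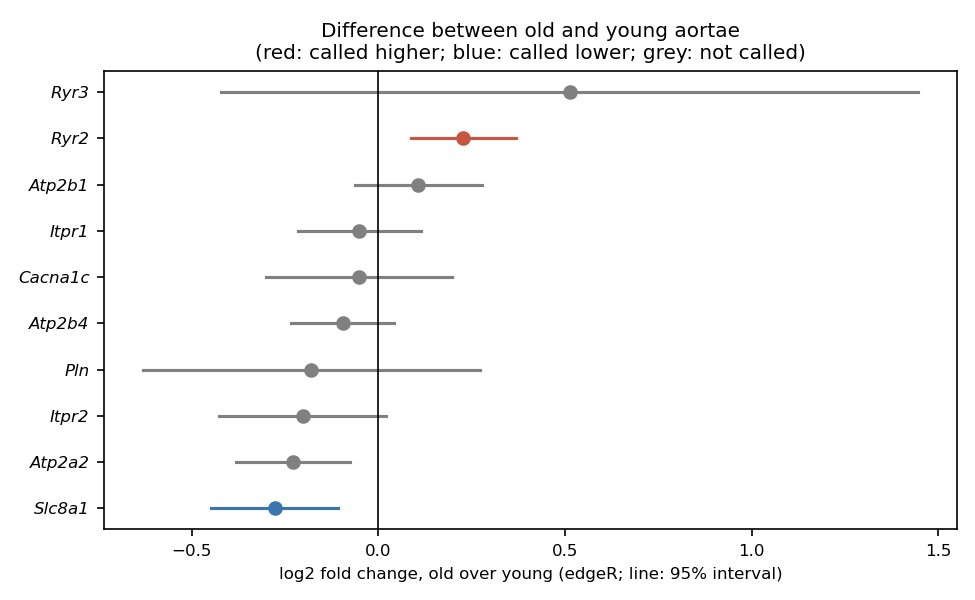
Log2 fold change of old over young (x axis, edgeR) of the 10 genes, ordered by size, with 95% intervals as lines. *Ryr2* (red, 0.23) was called higher and *Slc8a1* (blue, -0.28) lower, the interval of the uncalled *Atp2a2* also lies below 0, and those of the other 7 genes span 0.

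The sequences before the start sites of both called genes are shown because these genes moved in opposite directions. Promoters from RefSeq (GRCm38.p6) were matched for 7 of the 10 genes, and each stretch below is the 250 bases before the start, read 5′ to 3′ on the gene's own strand (minus for both), with matches to CANNTG, the E-box core, in capitals. The *Ryr2* stretch lies at chr13:12106946-12107195 and the *Slc8a1* stretch at chr17:81738388-81738637.
Ryr2: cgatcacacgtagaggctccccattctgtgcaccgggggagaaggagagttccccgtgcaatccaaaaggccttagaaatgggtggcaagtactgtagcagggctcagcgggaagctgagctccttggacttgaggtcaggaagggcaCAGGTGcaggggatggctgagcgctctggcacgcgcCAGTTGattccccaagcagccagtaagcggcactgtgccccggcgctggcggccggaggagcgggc
Slc8a1: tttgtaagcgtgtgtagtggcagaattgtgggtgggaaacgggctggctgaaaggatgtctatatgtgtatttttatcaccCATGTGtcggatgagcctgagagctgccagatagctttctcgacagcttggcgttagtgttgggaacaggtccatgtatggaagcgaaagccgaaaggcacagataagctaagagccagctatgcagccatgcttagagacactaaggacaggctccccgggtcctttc
The *Ryr2* stretch has 63.2% G and C and holds 2 E-box cores, and the *Slc8a1* stretch has 50.4% and holds 1. Searched on both strands, neither holds a CArG box, the motif bound by serum response factor. Neither holds the clock type of E-box, CACGTG, which is itself a form of the core. The GC box GGGCGG is not in these windows, nor is the TATA box TATAAA. Of 32851 mouse promoters of the same length, 66.2% held the E-box core, 1.47% a CArG box, 6.02% the clock type of E-box, 32.7% the GC box and 12.4% the TATA box. These matches say nothing on binding in the aorta.

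Levels were compared between genes as normalized counts per kilobase of exons. *Atp2a2* was the highest with a mean of 2973 over the 10 mice, followed by *Atp2b4* with 820 and *Itpr1* with 547. Each of these was above the next gene in 10 of 10 mice. *Slc8a1* (126.5), *Atp2b1* (125.8) and *Cacna1c* (124.2) had nearly the same mean over the 10 mice, and *Atp2b1* was above *Cacna1c* in 6. *Slc8a1* was above *Atp2b1* in 5 mice, which were all the young ones, and below it in all the old ones. The means of *Slc8a1* and *Atp2b1* were 139 and 121.5 in young aortae and 114 and 130.1 in old ones. This order was not tested. *Pln* (106.9) and *Ryr2* (89.1) came next, *Pln* being the higher in 8 of 10 mice. *Itpr2* (36.3) was below *Ryr2* in all 10 mice, and *Ryr3* (1.38) was below *Itpr2* in all 10.

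**Figure D3:**
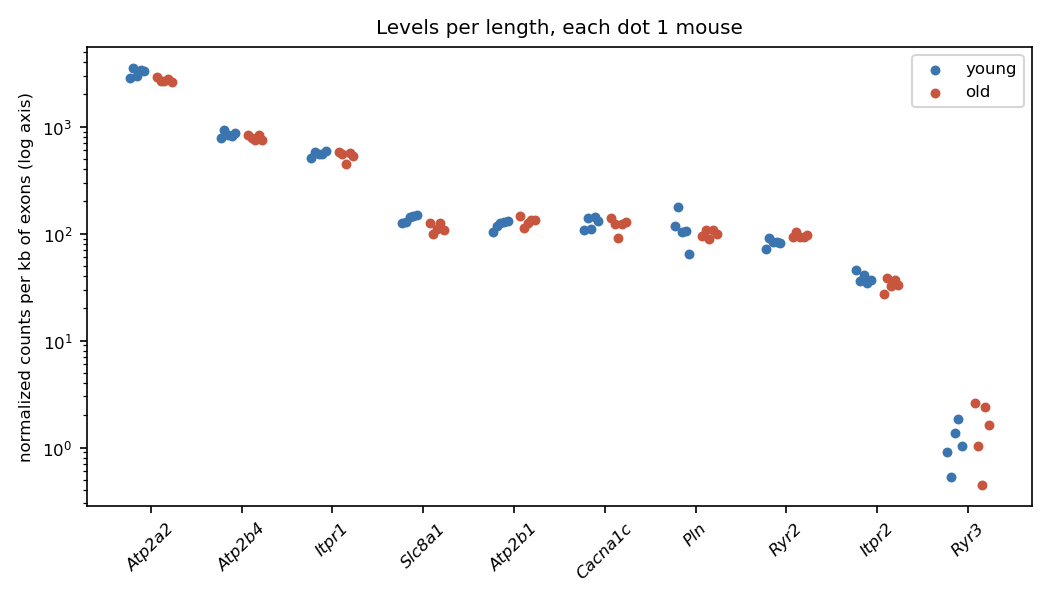
Normalized counts per kilobase of exons (y axis, log scale) of the 10 genes in the order of their mean, with 1 dot for each young (blue) or old (red) mouse. The genes span from 2973 for *Atp2a2* to 1.38 for *Ryr3*. The 4 genes from *Slc8a1* to *Pln* overlap, and *Ryr2* overlaps *Pln*, *Cacna1c* and *Slc8a1* in part.

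Within each mouse, the ratio of related genes on this scale overlapped between the ages. The log2 ratio of *Pln* to *Atp2a2* was -4.89 ± 0.513 in young aortae and -4.77 ± 0.142 in old ones (SD, n = 5 each). The ratio of *Ryr3* to *Ryr2* was -6.29 ± 0.707 and -6.14 ± 1.05, and that of *Itpr2* to *Itpr1* was -3.85 ± 0.247 and -4.00 ± 0.249. The log2 ratio of *Atp2b4* to *Atp2b1* was 2.81 ± 0.134 in young and 2.61 ± 0.118 in old aortae. These ratios were described without a test. The difference of *Pln* to *Atp2a2*, 0.117, was -0.083 when young replicate 5 was omitted and 0.26 when young replicate 2 was, and that of *Ryr3* to *Ryr2*, 0.154, was -0.127 with young replicate 2 omitted and 0.547 with old replicate 3 omitted, so that neither had a stable sign.

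The libraries were also read for other cell types. The summed level of 9 smooth muscle markers, led per length by *Acta2* and *Tagln*, ranged from 37940 to 44870 CPM (counts scaled to the library size) in young and from 35410 to 43060 in old aortae (exact two-sided permutation p = 0.278). Of the 9 markers all were tested, and 1 was higher and none lower by edgeR, with 1 lower at an unadjusted p below 0.05 and 1 lower by DESeq2. The sum of 7 endothelial markers, led by *Pecam1* and *Cdh5*, fell from 1176 ± 289 to 701 ± 247 CPM (exact permutation p = 0.0317), with ranges of 937 to 1618 and 476 to 1094. That of 7 fibroblast markers, led by *Dcn* and *Col1a1*, fell from 6514 ± 388 to 5574 ± 670 CPM (exact permutation p = 0.0238). The members of that list did not move together, and the fall of the sum is not a fall of the list. *Col1a1* fell from 58611 ± 8337 to 31070 ± 6754 normalized counts (edgeR adjusted p = 0.00277). *Lum* rose from 5423 ± 526 to 8084 ± 1227 (0.00296), and *Dcn* had 43273 ± 3798 and 52014 ± 5689 (0.0634). Of the 7, 1 was called higher and 2 lower, 3 differences were positive and 4 negative, and the median log2 fold change was -0.069. That of 8 leukocyte markers, led by *Lyz2* and *Csf1r*, rose from 268 ± 32.1 to 400 ± 140 CPM (exact permutation p = 0.0238). These tests were near their limit. The endothelial sum did not pass without young replicate 3 (exact permutation p = 0.0556) or without old replicate 1, 3, 4 or 5 (0.0635), the fibroblast sum without young replicate 1, 2, 4 or 5 (0.0635), and the leukocyte sum without young replicate 2 or 4 (0.0556) or 5 (0.0635). Without old replicate 3 the leukocyte difference was 71.1 CPM, against 131.8 CPM with it. The part of these cell types in the values of the 10 genes was not tested.

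Heart muscle also expresses *Ryr2*, *Atp2a2*, *Pln* and *Slc8a1*, and 2 young libraries stood apart in some heart muscle transcripts. *Myh6*, which encodes a myosin of heart muscle and was picked after its values were seen, had 161 normalized counts in young replicate 2 and 77.9 in young replicate 5 against at most 6.76 in the other 8 libraries. *Myl7*, an atrial light chain, had 46.3 and 17.4 in these libraries and 0 in the other 8. The sum of all 12 heart muscle markers, led by *Tnnt2* and *Actc1*, ranged from 22.5 to 44.3 CPM in young and from 32.2 to 83.1 CPM in old aortae (exact permutation p = 0.111). Of these markers 5 were tested. *Tnnt2* rose from 241 ± 72.3 to 798 ± 431 normalized counts (edgeR adjusted p = 0.0116) and *Actc1* fell from 137 ± 87.1 to 33.8 ± 18.4 (0.0165), and neither stood out in young replicates 2 and 5. At low counts, *Nppa* had 5.03 and 1.02 in young replicates 2 and 5 and 0 in the other 8 libraries. *Mybpc3* had 13.1 and 10.2 in these 2 libraries and at most 5.83 elsewhere. *Myl2* and *Myl3* did not stand out in them, and *Nppb* was at 0 in all young libraries.

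Young replicate 2 was also the highest young library for *Ryr2*, *Atp2a2* and *Pln*, whereas young replicate 5 was the highest for *Slc8a1* and the lowest for *Pln*. With both libraries left out, an alternative chosen after seeing the data, the log2 fold change was 0.27 for *Ryr2* (edgeR adjusted p = 0.0643) and -0.28 for *Slc8a1* (0.105), as large as with all libraries. It was -0.17 for *Atp2a2* (0.27) and -0.12 for *Pln* (0.585). No member was then called by edgeR, 1 was higher and 1 lower at an unadjusted p below 0.05, and 780 genes were called in all.

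The libraries also differed in how the 10 genes stood together. Young replicate 1 was the lowest young library for 7 of the 10 genes, and old replicate 3 was the lowest old library for 6. Old replicate 1 was the highest old library for 5 genes.

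**Figure D4:**
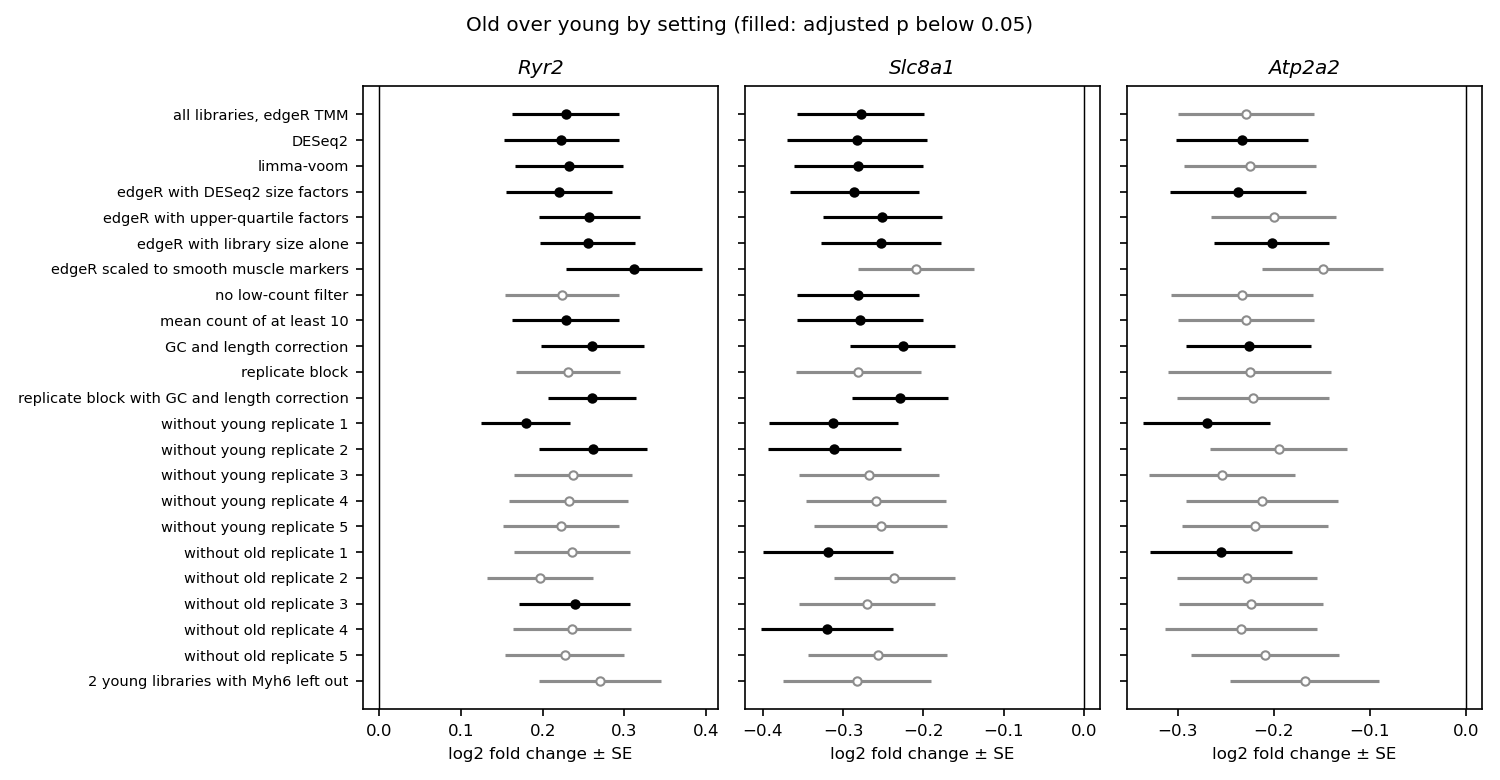
Log2 fold change of old over young (x axis) with its SE for *Ryr2*, *Slc8a1* and *Atp2a2* under each setting (y axis), filled where the adjusted p was below 0.05. The direction was the same in every setting, while the size varied (*Ryr2* 0.18 to 0.31, *Slc8a1* -0.32 to -0.21, *Atp2a2* -0.27 to -0.15). The call came and went for all 3 genes.

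A further 104 genes of calcium signalling in 7 lists were read from the same fit. Of these 86 were tested, 10 were higher and 8 lower, and 68 did not pass, beside the 6.48% higher and 4.99% lower (11.5% in all) among all tested genes. Nothing is read from the share called, because the lists were chosen with results known, and the same background applies to each list that follows. The median log2 fold change was -0.022. In 12 of the 18 called genes the call held in every fit that left out 1 library (*Atp2a3*, *Cacna1g*, *Cacna1h*, *Cacna2d3*, *Camk2b*, *Camk2g*, *Gnaq*, *Mcub*, *Slc24a4*, *Slc8a3*, *Slc8b1* and *Trpc4*), and in 7 it held in all 20 alternatives without the replicate block. *Trpc4* is in both counts, but it passed the low-count filter through the old libraries alone. Its place in them is thus not independent of that filter. Without young replicates 2 and 5, 5 of the 104 genes were higher and 3 lower.

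Among 17 subunits of voltage-gated channels, 11 were tested, of which 2 were higher and 1 lower, with a median log2 fold change of 0.022. Both genes of T-type pores that were tested moved, in opposite directions. *Cacna1h* had 234, 330, 130, 248 and 172 normalized counts in young and 508, 460, 424, 452 and 444 in old aortae, all old values being above all young ones. It rose by 1.05 on the log2 scale (SE 0.195, edgeR adjusted p = 0.00583). *Cacna1g* had 771, 710, 472, 723 and 712 in young and 488, 353, 381, 538 and 465 in old aortae, and the groups overlapped through young replicate 3 alone. It fell by 0.60 on the log2 scale (SE 0.141, edgeR adjusted p = 0.0174), and its adjusted p was 0.104 without young replicates 2 and 5.

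*Cacna2d3*, an auxiliary subunit, rose from 101, 140, 91.7, 128 and 137 normalized counts to 232, 263, 300, 242 and 212 (log2 fold change 1.07, SE 0.139, edgeR adjusted p = 0.000374), with no overlap. The subunits that accompany *Cacna1c* did not pass. *Cacna2d1*, the most abundant of the list per length, had a log2 fold change of -0.11 (SE 0.068, edgeR adjusted p = 0.351), *Cacnb2* of -0.18 (SE 0.097, adjusted p = 0.271) and *Cacnb3* of 0.12 (SE 0.097, adjusted p = 0.493). *Cacna1d*, the other L-type pore tested, had 437 ± 91.0 and 482 ± 19.8 normalized counts (edgeR adjusted p = 0.488), while *Cacna1s* of skeletal muscle had 7 counts in all young and 11 in all old libraries and was not tested.

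Of 17 release channel paralogs and proteins of the sarcoplasmic reticulum, 15 were tested, none was higher and 1 was lower by edgeR, with a median log2 fold change of -0.074. At an unadjusted p below 0.05, 1 was higher and 4 were lower, and DESeq2 and limma-voom called none higher. The lower gene was *Itprid2*, which encodes a protein that binds inositol trisphosphate receptors. It had 3063, 3646, 3579, 3530 and 3217 normalized counts in young and 3023, 2892, 2589, 2948 and 2864 in old aortae, with every old value below the young ones (log2 fold change -0.24, SE 0.065, edgeR adjusted p = 0.0285). Its adjusted p was 0.0685, 0.064 and 0.0746 without young replicates 2, 3 and 4, 0.0557 and 0.0624 without old replicates 3 and 5, and 0.229 under scaling to smooth muscle markers.

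*Itpr3* had 513 ± 102 and 581 ± 44.6 normalized counts (log2 fold change 0.19, SE 0.12, edgeR adjusted p = 0.347). *Ryr1* of skeletal muscle had 32 counts in young and 44 in old libraries and was not tested. The FK506 binding proteins that sit on ryanodine receptors did not pass, with log2 fold changes of -0.15 for *Fkbp1a* (SE 0.061, edgeR adjusted p = 0.149) and 0.20 for *Fkbp1b* (SE 0.153, adjusted p = 0.45). *Calr*, the calcium buffer of the store and the most abundant of this list, had a log2 fold change of -0.05 (SE 0.082, edgeR adjusted p = 0.756).

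Of 17 paralogs and regulators of the pumps and exchanger, 10 were tested, and 3 were higher and 1 lower, with a median log2 fold change of 0.052. *Atp2a3*, the gene of SERCA3, rose while *Atp2a2* had a negative difference. It had 3980, 3825, 4040, 3920 and 3466 normalized counts in young and 4563, 4965, 4487, 4674 and 4318 in old aortae, without overlap (log2 fold change 0.27, SE 0.061, edgeR adjusted p = 0.013, and 0.104 without young replicates 2 and 5). *Slc8a3*, the gene of the exchanger NCX3, had 60.3, 124, 88.7, 71.5 and 84 in young and 141, 182, 259, 164 and 208 in old aortae, again without overlap (log2 fold change 1.16, SE 0.202, edgeR adjusted p = 0.00282). Per kilobase *Slc8a3* remained below *Slc8a1* in both groups, at 16.1 against 139 in young and 35.8 against 114 in old aortae.

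*Slc8b1*, the exchanger of the mitochondrial membrane, rose from 391 ± 48.6 to 510 ± 25.0 normalized counts (log2 fold change 0.39, SE 0.084, edgeR adjusted p = 0.00957, and 0.0971 without young replicates 2 and 5). *Slc24a4*, a potassium-dependent sodium-calcium exchanger, had 70.5, 75.5, 59.8, 57 and 101 in young and 25, 38.1, 34.5, 20.2 and 17.5 in old aortae. It fell by 1.42 on the log2 scale (SE 0.244, edgeR adjusted p = 0.00266), with every old value below the young ones. *Slc8a2* (log2 fold change 0.10, SE 0.083, edgeR adjusted p = 0.51), *Atp2b2* (-0.30, SE 0.227, adjusted p = 0.438) and *Fxyd1* (-0.09, SE 0.071, adjusted p = 0.474), the most abundant of the list, did not pass. *Atp2a1*, *Atp2b3* and *Sln* were not tested. *Atp2a1*, the SERCA gene of skeletal muscle, had 165 normalized counts in young replicate 2 and at most 12.6 elsewhere.

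**Figure D5:**
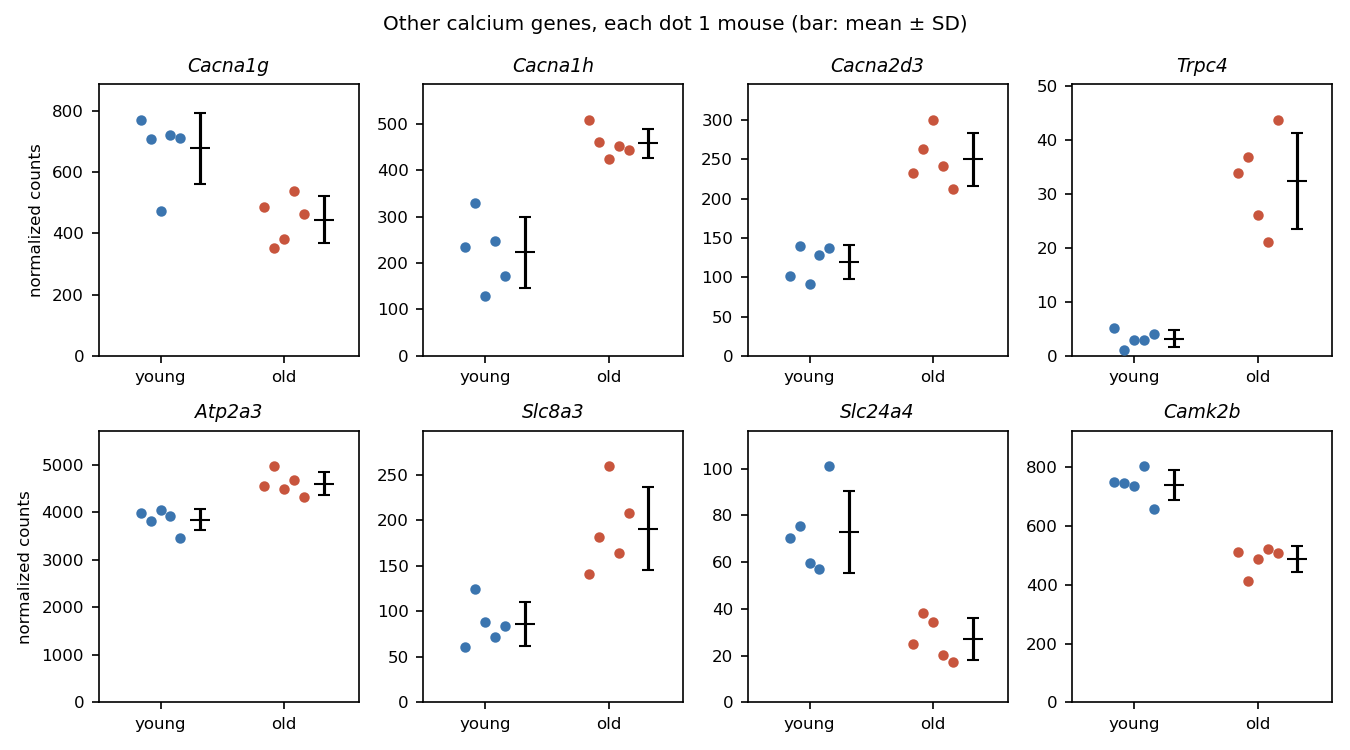
Normalized counts (y axis, from 0) of 8 other calcium genes in each of 5 young (blue) and 5 old (red) aortae, with the mean and SD of each group as a bar. *Cacna1h*, *Cacna2d3*, *Trpc4*, *Atp2a3* and *Slc8a3* were higher and *Slc24a4* and *Camk2b* lower in every old aorta than in any young one, while *Cacna1g* overlaps through young replicate 3.

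Of 16 store-operated and TRP entry channels and their partners, 14 were tested, and 1 was higher and 2 lower, with a median log2 fold change of -0.083. *Trpc4*, a receptor-operated cation channel, was nearly undetected in young aortae, with 5.11, 1.01, 2.99, 2.9 and 4.1 normalized counts. It had 34, 37, 26.1, 21.2 and 43.8 in old aortae, or 163 counts in all against 16. Since *Trpc4* passed the low-count filter through the old libraries alone, its call (log2 fold change 3.29, SE 0.351, edgeR adjusted p = 9.96e-05) is not independent of that filter. With no filter it was also called (log2 fold change 3.29, edgeR adjusted p = 2.74e-07). The level in old aortae was low, at 4.04 per kilobase.

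*Stim1*, the calcium sensor of the store, fell from 2315 ± 127 to 2036 ± 66.8 normalized counts (log2 fold change -0.18, SE 0.053, edgeR adjusted p = 0.046). *Saraf*, the inhibitor of store-operated entry and the most abundant of the list, fell from 3785 ± 359 to 3220 ± 94.2 (log2 fold change -0.23, SE 0.067, edgeR adjusted p = 0.0458). Both calls were at the threshold. The *Stim1* call was lost without any 1 library other than young replicates 1 and 5, with adjusted p of 0.0685 to 0.108, and the *Saraf* call without any 1 library other than young replicate 1 and old replicate 2, with 0.0561 to 0.119. Under scaling to smooth muscle markers they had adjusted p of 0.406 and 0.28.

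All 7 genes of the mitochondrial uniporter complex were tested, and 1 was higher by edgeR and by limma-voom and 2 by DESeq2, with a median log2 fold change of -0.031. None was lower with any of these tools, and at an unadjusted p below 0.05 by edgeR 2 were higher and 0 lower. *Mcub*, the subunit that dampens the uniporter, had 131, 88.6, 106, 105 and 97.3 normalized counts in young and 145, 167, 213, 174 and 152 in old aortae. The groups were separate, and the log2 fold change was 0.70 (SE 0.139, edgeR adjusted p = 0.00618, and 0.061 without young replicates 2 and 5). *Smdt1*, the most abundant subunit, had a log2 fold change of -0.09 (SE 0.069, edgeR adjusted p = 0.476).

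All 18 genes of calmodulin, its kinases and calcineurin were tested, and 1 was higher and 2 lower, with a median log2 fold change of -0.021. Both kinase genes that were called belong to calmodulin-dependent kinase II and moved in opposite directions. *Camk2b* fell from 748, 747, 737, 802 and 657 normalized counts to 511, 411, 487, 521 and 508 (log2 fold change -0.59, SE 0.077, edgeR adjusted p = 0.000375). *Camk2g* rose from 3949, 3767, 3516, 3250 and 3827 to 4916, 4607, 4368, 4696 and 4281 (log2 fold change 0.33, SE 0.065, edgeR adjusted p = 0.00598). The groups did not overlap for either gene.

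*Rcan1*, an inhibitor of calcineurin, had 1368, 2795, 2277, 3318 and 2060 normalized counts in young and 1575, 988, 1341, 1391 and 1519 in old aortae. Young replicate 1 lay among the old values. Its log2 fold change was -0.79 (SE 0.217, edgeR adjusted p = 0.0431), and the call held without young replicate 1 but not without any other 1 library, with adjusted p of 0.057 to 0.0938. *Calm2*, the most abundant gene of the list, had 8714 ± 592 and 9909 ± 929 normalized counts (log2 fold change 0.19, SE 0.075, edgeR adjusted p = 0.118).

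Of 12 genes of phospholipase C and its G alpha q activators, 11 were tested, and 2 were higher and 1 lower, with a median log2 fold change of 0.034. *Gnaq*, which couples vasoconstrictor receptors to phospholipase C, fell from 2245, 2230, 2332, 2130 and 2248 normalized counts to 1952, 1758, 1797, 2075 and 1917, without overlap (log2 fold change -0.23, SE 0.056, edgeR adjusted p = 0.019). Its adjusted p was 0.232 with scaling to smooth muscle markers and 0.0855 without young replicates 2 and 5. *Plcb4*, the most abundant of the list, had a log2 fold change of 0.03 (SE 0.079, edgeR adjusted p = 0.829).

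*Plcd1* rose from 1589 ± 144 to 1895 ± 131 normalized counts (log2 fold change 0.26, SE 0.071, edgeR adjusted p = 0.0302), a call that held without young replicate 1, old replicate 4 or old replicate 5 and was lost without any other 1 library (adjusted p of 0.0591 to 0.0823). *Plcb2*, the form found in blood cells, had 13.3, 6.04, 8.97, 4.83 and 6.15 in young and 17, 33.8, 49.4, 9.64 and 19.4 in old aortae. *Plcb2* passed the low-count filter mainly through the old libraries. The highest library was old replicate 3, which also had the highest sum of leukocyte markers, 642.5 CPM against 293 to 370.9 in the other old libraries. *Plcb2* had a log2 fold change of 1.72 (SE 0.446, edgeR adjusted p = 0.025). It was 1.33 (0.0643) without old replicate 3, and the adjusted p was 0.0635, 0.0676, 0.0612 and 0.0522 without young replicates 2, 4 and 5 and old replicate 2. Of the 8 leukocyte markers 6 were tested and 2 were higher, and their part in the *Plcb2* value was not tested.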

How the data were processed

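The authors prepared poly(A) libraries (TruSeq Stranded mRNA) from 5 young and 5 old aortae, removed reads under 35 bases with fastp 0.20.0, aligned them to GRCm38 with STAR 2.7.0f and counted them per gene with featureCounts of Subread 1.6.4. The strand setting and the handling of reads with several alignments are not given in the sources used here. The deposited values are raw counts per gene symbol.

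Counts were filtered with filterByExpr and tested with edgeR 4.0.16 (quasi-likelihood, robust, TMM, R 4.3.3), old against young, with Benjamini-Hochberg adjustment over 14614 genes. Called genes had an adjusted p below 0.05. Marker sums are CPM on TMM library sizes. Lengths and positions came from GENCODE M21, in which 54396 of 55453 symbols matched 1 gene. DESeq2 1.42.0 and limma-voom 3.58.1 were alternatives. On simulated counts with a log2 fold change of 1, edgeR called 171 of 195 changed and 10 other genes of 14482. The differences of the 10 genes were smaller, with a median size of 0.192. The simulation therefore does not show how often differences of that size are called. The edgeR p-values set the age difference against the spread between mice, which was estimated with information shared across genes. The permutation p-values come from reassigning the mice to the groups. The named genes were the 10 genes, their paralogs and regulators, every called gene of the 7 lists, the most abundant gene per length of each, and the leading markers. A further marker list is not reported here. The 10 genes and all lists were chosen with earlier results of these data known.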

Additional observations from a re-analysis of the deposited data

Results flagged for a closer look

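Among 108 groups of 5 libraries checked for 1 library far from the rest, 4 held one, and chance alone marks about 1 in 20 groups. *Cacna1g* had 471.6 normalized counts in young replicate 3, against 710.4 to 770.8 in the other young libraries. The sum of skeletal muscle markers, led by *Ckm* and *Acta1*, was 57.27 CPM in young replicate 2, which also held most of the *Atp2a1* counts, and 8.87 to 12.2 CPM in the other young libraries. The leukocyte marker sum was 642.5 CPM in old replicate 3 and 293 to 370.9 CPM in the other old libraries. Mitochondrial genes took 11.0% of counts in old replicate 2 and 5.19% to 6.51% in the other old libraries. No cause of these values was tested.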

How the results depend on the processing

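Of 10 calcium handling genes, 1 was higher and 1 lower. None was higher without the low-count filter, none was lower with scaling to smooth muscle markers, and 2 were lower with DESeq2 (which called 15.8% of all tested genes), with its size factors, with library size alone and with the GC and length correction. With young replicates 2 and 5 left out, 0 were higher and 0 lower. Leaving out 1 library gave 0 to 1 higher and 0 to 2 lower. Under these edgeR settings 1 or 2 of the 10 genes were higher and 1 to 3 lower at an unadjusted p below 0.05.

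Of the other calcium genes, 10 were higher and 8 lower, against 4 lower with scaling to smooth muscle markers, 5 higher and 3 lower without young replicates 2 and 5, and 8 to 10 higher and 4 to 11 lower without 1 library. Of all tested genes, 947 were higher and 729 lower (56.5% of calls higher), against 885 and 349 (71.7%) with scaling to smooth muscle markers, 411 and 369 without young replicates 2 and 5, and 658 to 1228 and 474 to 1139 without 1 library.

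The difference turned sign for *Cacna1c* (0.028 under scaling to smooth muscle markers, 0.033 without old replicate 3, 0.008 without young replicates 2 and 5), *Itpr1* (0.028 and 0.007 under the first 2 of these) and *Pln* (0.035 without young replicate 2), none of which was called. Without 1 library these ran from -0.114 to 0.033, from -0.085 to 0.007 and from -0.331 to 0.035. The log2 ratio differences, old minus young, without 1 library ran from -0.083 to 0.26 for *Pln* to *Atp2a2*, -0.127 to 0.547 for *Ryr3* to *Ryr2*, -0.202 to -0.045 for *Itpr2* to *Itpr1* and -0.245 to -0.156 for *Atp2b4* to *Atp2b1*. The cause was not tested.

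Replicate numbers are shared by the groups, but libraries of the same number did not deviate together over all genes (correlations of -0.300, -0.074, 0.098, -0.048 and 0.132). A small effect shared by libraries of the same number could not be seen this way. With the replicate number as a block, 0 of the 10 genes were higher and 0 lower by edgeR (1 higher and 2 lower at an unadjusted p below 0.05), 10 other calcium genes were higher and 3 lower, and 794 of all genes were higher and 467 lower. The block gave *Ryr2* 0.23 (adjusted p = 0.0539) and *Slc8a1* -0.28 (0.0552). With the block and the GC and length correction together, both were called and 3 other calcium genes were lower.

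Differences of the marker sums in CPM, old minus young, without 1 library, ran from -572.5 to -363.9 for endothelial, -1112 to -724.8 for fibroblast, 71.08 to 158.5 for leukocyte, 7.7 (without old replicate 3) to 20.41 for heart muscle, -120.9 to -41.31 for adipocyte and -10.57 to 1.53 for skeletal muscle markers, the last turning positive (1.53) without young replicate 2. With library size alone the fibroblast difference was -830.5 and no longer passed (exact permutation p = 0.0635).

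*Ryr3* had few counts, 108 in young and 155 in old libraries, and a wide spread between mice. Low counts left paralogs such as *Ryr1* untested.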

Other observations

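Genes that moved apart were also compared within each mouse, as log2 ratios of normalized counts per kilobase. The pairs were chosen after their values were seen, so the differences are descriptions without a test. *Cacna1h* to *Cacna1g*, the T-type pore genes, was at -1.60 ± 0.359 in young aortae and 0.11 ± 0.237 in old ones (SD, n = 5 each), with *Cacna1g* the higher in all 5 young mice. *Slc8a3* to *Slc8a1*, the exchanger genes, was at -3.15 ± 0.414 and -1.70 ± 0.44. *Atp2a3* to *Atp2a2*, the SERCA genes, was at -2.14 ± 0.191 and -1.65 ± 0.086. *Ryr2* to *Slc8a1*, which are not of the same family, was at -0.76 ± 0.15 and -0.24 ± 0.207. In each of these 4 ratios all old mice lay above all young ones. Each ratio sets a gene with a positive difference over one with a negative difference, so this separation follows largely from the choice of pairs.

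The sums of adipocyte markers, led by *Adipoq* and *Cidec*, were 203 ± 135 CPM in young and 104.5 ± 36.8 CPM in old aortae (exact permutation p = 0.103), and the difference of -98.57 CPM was -41.31 CPM without young replicate 1. The skeletal muscle marker sums were 20.1 ± 20.8 and 12.3 ± 1.36 CPM (exact permutation p = 0.929).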
